A study of Mus musculus with 12 samples.

Results

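Glycolysis and hypoxia response genes were followed through radiation of tumour cells: 42 mouse genes, chosen by symbol from the 57180 rows of a table of estimated counts per gene. They cover glucose uptake and lactate export, the enzymes and regulators of glycolysis, the pyruvate dehydrogenase switch, oxygen sensing, and other genes known to respond to low oxygen. One of them, Aldoa, had a second row, so the 42 genes filled 43 rows, and all values below for Aldoa are those of its main row. RNA came from cultures of 2 lines that are wild type per the labels, KPC (mouse pancreatic ductal adenocarcinoma) and MB49 (mouse bladder cancer). Both were grown in DMEM with serum under added CO2, with no low-oxygen step described. The 4 groups, each of 3 libraries, were KPC given 8 Gy of radiation, KPC control, MB49 given 8 Gy and MB49 control. The irradiated cells were harvested 48 h after treatment. For the controls the labels state no such time, so time in culture and dose cannot be told apart. The series' text also speaks of senescent cells, which no library label mentions, and each line is a single line with no other of its tissue beside it.

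Glycolysis turns glucose into pyruvate and yields ATP without oxygen; lactate dehydrogenase then turns pyruvate into lactate, which leaves the cell through monocarboxylate carriers. When oxygen is low, prolyl hydroxylases of the Egln family no longer mark the HIF alpha subunits (Hif1a, Epas1) for destruction. The stabilised protein pairs with Arnt and binds a short DNA core, ACGTG or GCGTG, at genes of glycolysis, pH control, mitophagy and collagen processing. Tumour cells often keep this programme high even with oxygen present. HIF protein is set mainly by its breakdown, so the RNA level of Hif1a does not measure its activity.

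Depth ran from 19005991 to 26337928 counts per library, with 12216 to 13045 genes at 10 counts or more. Levels between libraries are CPM, read counts scaled to a common library size by TMM factors of 0.829 to 1.18, given as mean ± SD (n = 3) where not given per library. A gene is called where edgeR's quasi-likelihood test over 14362 genes gave a Benjamini-Hochberg adjusted p under 0.05. Fold changes are log2, 8 Gy over control, ± SE. The labels do not say whether the 3 libraries of a group are separate cultures; p-values therefore rest on the spread between libraries, which may be technical. In bulk RNA a share of cells that change and a change in each cell cannot be told apart. Of 7 pancreatic duct genes, 6 reached 1 CPM in KPC and 5 in MB49, so their number hardly separates the lines; their sum was 633 to 718 CPM in KPC 8 Gy, 343 to 371 CPM in KPC control, 138 to 192 CPM in MB49 8 Gy and 149 to 179 CPM in MB49 control. Of 9 urothelial genes, 3 reached 1 CPM in KPC 8 Gy, 2 in KPC control and 1 in each MB49 group, and Upk1b, Upk2, Upk3a and Upk3b were at 0 in MB49 control. The lines are therefore called by their names. Marker sums moved with 8 Gy, but the genes within a sum did not all move the same way. In KPC, Krt19 averaged 415.7 CPM after 8 Gy, against 80.7 CPM in control, while Pdx1 averaged 21.8 CPM, against 76.7 CPM. In MB49, Dcn averaged 136.8 CPM after 8 Gy, against 36.1 CPM in control, while Col1a1 averaged 5.77 CPM, against 13.3 CPM. The epithelial sums of MB49 were nearly all Krt8 and Krt18. The 4 epithelial genes summed to 2950 to 3310 CPM in KPC 8 Gy, against 706 to 805 CPM in KPC control, and to 2690 to 3520 CPM in MB49 8 Gy, against 2260 to 2730 CPM in MB49 control. The 4 fibroblast genes summed to 81.2 to 101 CPM in KPC 8 Gy, against 166 to 209 CPM in KPC control, and to 160 to 215 CPM in MB49 8 Gy, against 52.4 to 70.7 CPM in MB49 control. Immune markers summed to at most 1.94 CPM in any library and endothelial markers to at most 3.16 CPM. MB49 control replicate 3 stood apart, with 3.73 CPM of Epcam and 2.69 CPM of Cdh1, against at most 0.0933 CPM of either in the other MB49 libraries; without it 25 members were called higher and 9 lower in MB49. The part of these markers in the results was not tested.

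In KPC, nearly the whole group was higher after 8 Gy. Of the 41 members tested, 34 were called higher and 4 lower, while 31.3% of all genes tested were called higher and 32.0% lower. The median log2 fold change of the members was 1.36, or 1.34 with Ldhb at the bound given below, and that of all genes was -0.01. In MB49, 24 of 41 were called higher and 9 lower, against 35.3% and 31.6% of all genes, and the median was 0.62, with 0.04 for all genes. Slc16a3 had too few counts to be tested in either line. The MB49 counts moved with the setting: with library totals alone, 20 were called higher and 13 lower. With limma on log2(TPM + 1), which changes the test, the log offset, the division by gene length and the scaling together, 10 were higher and 15 lower. The same 2 settings gave 33 and 31 higher, and 6 and 6 lower, in KPC. They moved the median of all genes to -0.39 and -0.24 in KPC and to -0.23 and -0.36 in MB49, and that of the members to 0.97 and 0.96 in KPC and to 0.32 and 0.01 in MB49. Of all genes called, 49.4% were higher in KPC, against 31.8% and 31.6% in these settings, and 52.7% in MB49, against 39.5% and 27.7%. Gene length also moved with the MB49 response: the median log2 fold change of all genes was 0.64 in the eighth of shortest genes (median 831 bases) and -0.28 in the eighth of longest (6961 bases), while in KPC these were -0.06 and -0.09. With an offset for gene length, 34 members were called higher and 3 lower in KPC, and 24 and 9 in MB49.

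**Figure D1:**
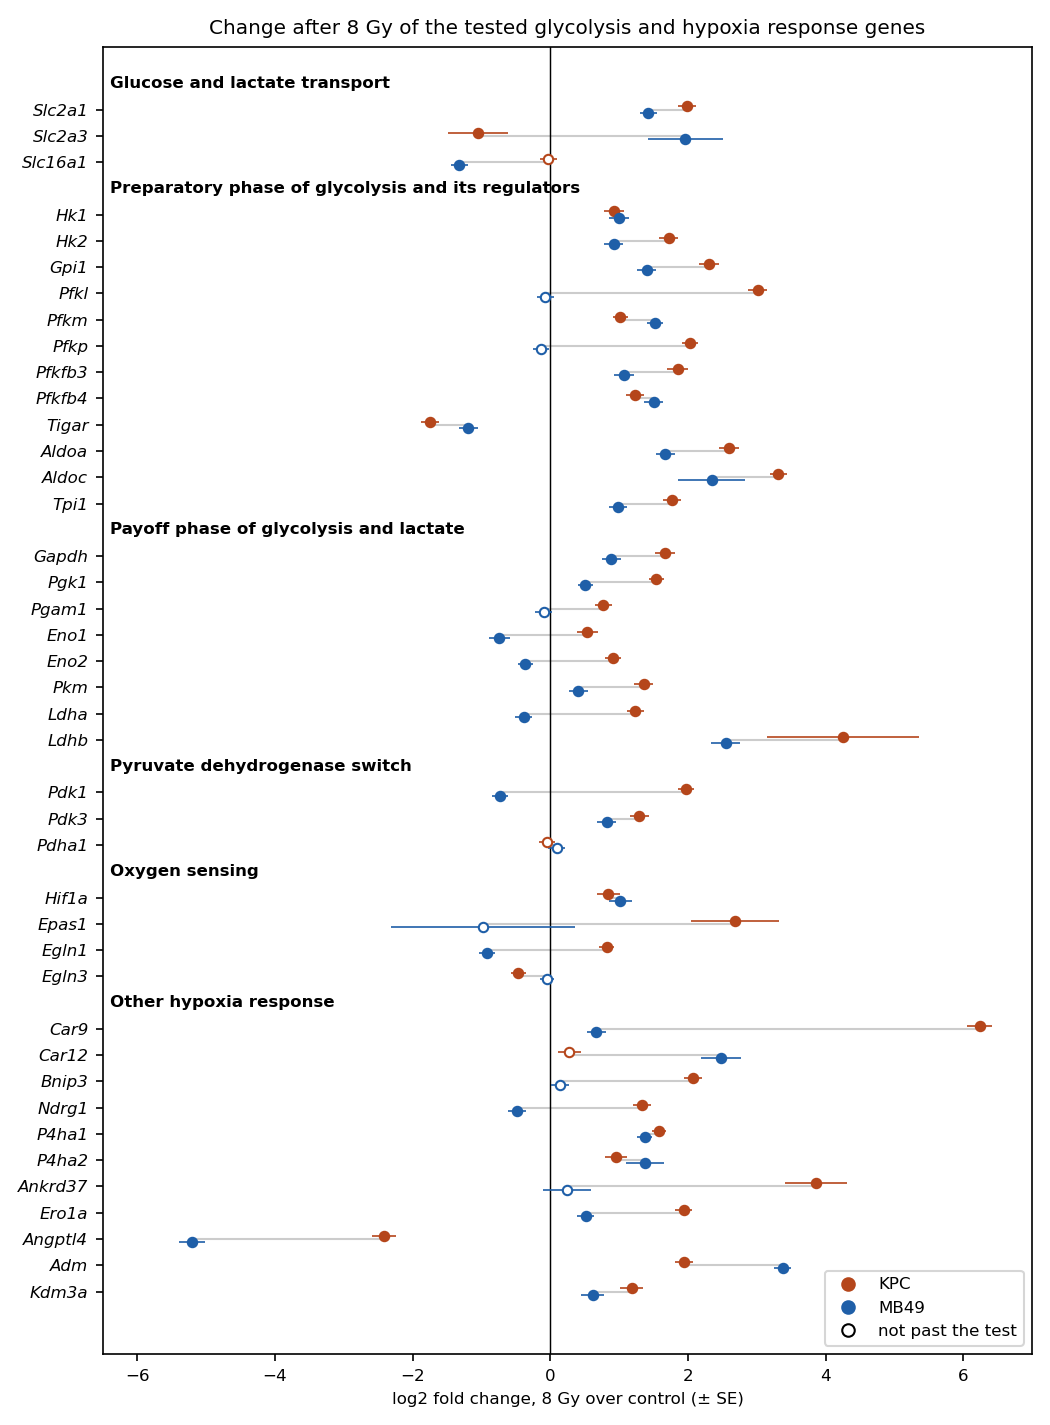
Log2 fold change after 8 Gy over control (horizontal axis, points ± SE) of the 41 members tested, in KPC (orange) and MB49 (blue), in the order of their roles; open points did not pass the test. The KPC point of Ldhb stands against controls at 0 counts, so its place depends on the fit's prior count. KPC points lie right of 0 for 34 called members and left of it for 4; MB49 points are mixed, with 24 called on the right and 9 on the left.

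Of the members called higher, 22 were called so in both lines, which is 64.7% of the 34 in KPC and 91.7% of the 24 in MB49. Over all genes, 2905 were called higher in both, 64.7% of those higher in KPC and 57.3% of those higher in MB49. Another 6 members were called higher in KPC and lower in MB49: Eno1, Eno2, Ldha, Pdk1, Egln1 and Ndrg1. These are 17.6% of the 34 and 66.7% of the 9 called lower in MB49; over all genes the shares were 8.98% and 8.88%. Both lines were lower for Tigar and Angptl4. Pdha1, a subunit of pyruvate dehydrogenase itself, was called in neither line.

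The difference of the responses was tested as such. It was called for 30 of the 41 members, 24 with a larger log2 fold change in KPC and 6 with a larger one in MB49, while 20.9% and 22.0% of all genes tested were called in these directions. The median difference was 0.90, with -0.02 for all genes, or 0.86 with Ldhb at its bound. The 6 on the MB49 side were Slc2a3, Car12, Adm, Tigar, Pfkm and Egln3. They were 3 (Slc2a3, Car12 and Adm) without MB49 8 Gy replicate 2, without KPC control replicate 1, and with no filter on low counts. With library totals alone and on the log2(TPM + 1) scale, 24 and 29 were called on the KPC side and 6 and 4 on the MB49 side; of all genes called, 48.7% were on the KPC side, against 61.9% on the second scale.

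Glucose enters these cells through the facilitative carriers of the Slc2a family. Slc2a1, which encodes GLUT1, had 319.5, 295.5 and 340.2 CPM in KPC 8 Gy, against 74.2, 84.0 and 83.0 CPM in KPC control. MB49 had 1059, 1059 and 842.2 CPM after 8 Gy, against 384.1, 341.0 and 378.6 CPM in control. The groups did not overlap in either line, and even the MB49 controls lay above every KPC library. The rise was 1.99 ± 0.13 in KPC (adjusted p = 5.59e-10) and 1.42 ± 0.13 in MB49 (adjusted p = 2.61e-08), and the difference of 0.56 ± 0.17 passed the test (adjusted p = 0.015). Slc2a3, the high-affinity GLUT3, was nearly silent, with 23 counts over the KPC 8 Gy libraries, against 60 in KPC control, and 28 over the MB49 8 Gy libraries, against 9 in MB49 control. Its ratios of scaled counts were 0.475 in KPC (95% counting interval 0.28 to 0.78) and 4.07 in MB49 (1.87 to 9.8). The KPC call of Slc2a3 (adjusted p = 0.0435) was lost in most alternatives, among them without any one of the KPC control libraries, without KPC 8 Gy replicate 3 and without KPC 8 Gy replicate 2, where the fold change was -0.67.

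Slc16a1, the lactate carrier MCT1, had 133.6, 132.5 and 104.3 CPM in KPC 8 Gy, against 117.4, 123.5 and 137.6 CPM in KPC control, and the groups overlapped. MB49 had 50.1, 50.1 and 54.9 CPM after 8 Gy, against 121.1, 142.5 and 124.1 CPM in control. It fell by 1.32 ± 0.13 on the log2 scale in MB49 (adjusted p = 6.41e-08), and the difference from KPC was 1.29 ± 0.17 (adjusted p = 1.92e-05). The hypoxia-linked export carrier MCT4, Slc16a3, had 12 counts in KPC 8 Gy, against 9 in KPC control, and 8 counts in MB49 8 Gy, against 30 in MB49 control. Neither line held it above 0.48 CPM in any library.

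The preparatory phase splits glucose into triose phosphates at the cost of ATP. Of its 12 enzymes and regulators, 11 (91.7%) were called higher and 1 (8.33%) lower in KPC, with a median log2 fold change of 1.81. In MB49, 9 (75%) were higher and 1 (8.33%) lower, with a median of 1.04. The shares of all genes were 31.3% and 32.0% in KPC, and 35.3% and 31.6% in MB49. Hk2, the inducible hexokinase that traps glucose in the cell, had 227.7, 204.0 and 224.7 CPM in KPC 8 Gy, against 51.3, 70.4 and 77.6 CPM in KPC control. In MB49 the values were 181.7, 174.0 and 163.6 CPM after 8 Gy, against 100.7, 91.9 and 81.1 CPM in control. The groups did not overlap, and the fold changes were 1.72 ± 0.14 in KPC (adjusted p = 1.48e-08) and 0.92 ± 0.14 in MB49 (adjusted p = 1.71e-05), the second no longer called on the log2(TPM + 1) scale (0.31). Gpi1, the next enzyme, had 2353, 2185 and 2448 CPM in KPC 8 Gy, against 493.3, 465.2 and 455.6 CPM in control, a rise of 2.31 ± 0.14 (adjusted p = 3.18e-10). MB49 had 1552, 1482 and 1087 CPM of it after 8 Gy, against 555.4, 477.5 and 527.2 CPM in control, a rise of 1.40 ± 0.14 (adjusted p = 1.08e-07).

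At phosphofructokinase, the committed step, the lines differed in which gene moved most. Pfkl, the liver-type subunit, had 543.5, 504.2 and 572.4 CPM in KPC 8 Gy, against 67.2, 66.9 and 66.5 CPM in KPC control. The MB49 libraries had 63.7, 66.8 and 47.7 CPM after 8 Gy, against 65.5, 56.9 and 64.6 CPM in control. The KPC 8 Gy libraries stood far above all others, and the MB49 groups overlapped. The rise in KPC was 3.01 ± 0.14 (adjusted p = 5.61e-12), the change in MB49 was -0.07 ± 0.13 (adjusted p = 0.648), and the difference was 3.08 ± 0.18 (adjusted p = 2.24e-09). Pfkp, the platelet-type subunit, had 387.3, 373.2 and 376.2 CPM in KPC 8 Gy, against 88.7, 94.0 and 95.7 CPM in control; its MB49 values of 263.9, 250.6 and 206.9 CPM after 8 Gy overlapped those of 269.5, 261.1 and 262.1 CPM in control. Its rise in KPC was 2.03 ± 0.12 (adjusted p = 1.24e-10), and the difference from MB49 was 2.16 ± 0.16 (adjusted p = 2.57e-08). Pfkm, the muscle-type subunit, had 375.9, 386.9 and 321.7 CPM in MB49 8 Gy, against 127.4, 116.4 and 134.5 CPM in MB49 control, a rise of 1.52 ± 0.12 (adjusted p = 3.92e-09). In KPC it had 170.6, 152.8 and 172.3 CPM after 8 Gy, against 83.1, 83.9 and 77.6 CPM in control, a rise of 1.02 ± 0.11 (adjusted p = 5.88e-07). The difference of -0.50 ± 0.16 passed the test (adjusted p = 0.0178). It was lost without MB49 8 Gy replicate 2, MB49 control replicate 2, KPC 8 Gy replicate 2 or KPC control replicate 1 (adjusted p = 0.0522 to 0.0654), with no filter and on the log2(TPM + 1) scale.

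Levels of different genes can be compared only per length, as TPM from the deposited gene lengths. On that scale Pfkl made up 42.0 ± 1.12% of the summed TPM of the phosphofructokinase genes in KPC 8 Gy (mean ± SD, n = 3), against 22.0 ± 0.332% in KPC control. In MB49 its share was 6.77 ± 0.476% after 8 Gy, against 10.4 ± 0.456% in control. Pfkm took 17.0 ± 0.429% in KPC 8 Gy, against 35.5 ± 1.38% in KPC control, and 54.9 ± 1.20% in MB49 8 Gy, against 28.0 ± 1.26% in MB49 control. After 8 Gy the leading genes were thus Pfkl and Pfkp in KPC and Pfkm in MB49, while Pfkp led in both controls. The summed TPM of the 3 genes was 547 ± 12.2 in KPC 8 Gy, against 169 ± 17.7 in KPC control, and 382 ± 44.1 in MB49 8 Gy, against 399 ± 23.3 in MB49 control. These shares are descriptions with no test.

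**Figure D2:**
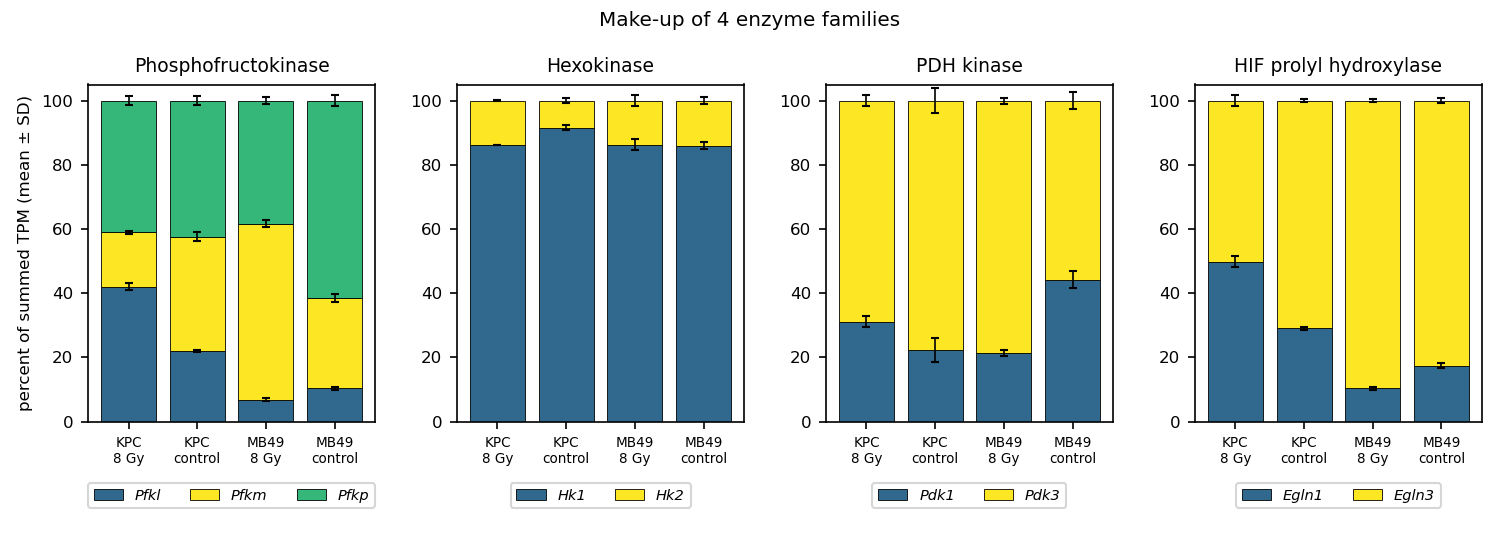
Share of each gene in the summed TPM of 4 enzyme families (vertical axis, percent; stacked bars are means of 3 libraries and error bars SD), for KPC 8 Gy, KPC control, MB49 8 Gy and MB49 control. Only members are counted, so Egln2 and Pdk2 are left out of their families. Egln2 averaged 36.11 TPM in KPC 8 Gy, 66.75 in KPC control, 35.45 in MB49 8 Gy and 69.38 in MB49 control. Pfkl reaches 42.0% in KPC 8 Gy and Pfkm 54.9% in MB49 8 Gy. The share of Egln1 in Egln1 and Egln3 is highest in KPC 8 Gy at 49.8%.

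The regulators of phosphofructokinase moved in the same direction in both lines, though by sizes that differed for Pfkfb3 (0.78, adjusted p = 0.00727) and Tigar (-0.56, adjusted p = 0.0229). Pfkfb3 and Pfkfb4 make fructose 2,6-bisphosphate, its strongest activator, and both were called higher in each line, by 1.85 and 1.23 in KPC and by 1.07 and 1.5 in MB49. Tigar, a phosphatase that removes this activator and a known p53 target, had 5.56, 5.90 and 5.72 CPM in KPC 8 Gy, against 17.9, 20.3 and 19.6 CPM in KPC control. The MB49 libraries had 6.68, 7.57 and 6.95 CPM after 8 Gy, against 15.2, 17.3 and 15.8 CPM in control. It fell by 1.75 on the log2 scale in KPC (SE 0.14, adjusted p = 5.8e-09) and by 1.19 in MB49 (SE 0.13, adjusted p = 5.15e-07).

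Aldolase, which cleaves the phosphorylated sugar, was among the strongest rises in both lines. Aldoa had 3954, 3732 and 4219 CPM in KPC 8 Gy, against 703.6, 641.9 and 625.8 CPM in KPC control, and 3048, 3077 and 2257 CPM in MB49 8 Gy, against 932.0, 758.8 and 935.6 CPM in MB49 control. The libraries of each line did not overlap, and the rises were 2.59 ± 0.15 in KPC (adjusted p = 1.2e-10) and 1.67 ± 0.14 in MB49 (adjusted p = 1.84e-08). Aldoc, the brain-type aldolase, had 93.6, 92.9 and 103.9 CPM in KPC 8 Gy, against 10.1, 9.47 and 9.60 CPM in control, a rise of 3.32 ± 0.12 (adjusted p = 2.21e-13). In MB49 it was close to silent, with 13 counts over the 8 Gy libraries, against 3 over the controls, a ratio of 5.67 (95% counting interval 1.56 to 31). Even in KPC 8 Gy it held only 1.34 ± 0.0342% of the TPM of both aldolases.

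In the payoff phase, which makes ATP and ends in lactate, the lines parted. All 8 genes were called higher in KPC, against 31.3% of all genes, with a median of 1.30. Eno1 was not called there with library totals alone or on the log2(TPM + 1) scale (0.16 in each), nor Ldhb on the second. In MB49, 4 (50%) were called higher and 3 (37.5%) lower, with a median of 0.16. Of all genes, 35.3% and 31.6% were, with a median of 0.04. The difference of the responses was called on the KPC side for 7 of the 8, against 20.9% of all genes. Gapdh had 10360, 9665 and 11170 CPM in KPC 8 Gy, against 3452, 3025 and 3338 CPM in KPC control, a rise of 1.67 ± 0.14 (adjusted p = 1.71e-08). In MB49 it had 4579, 4345 and 3378 CPM after 8 Gy, against 2345, 1994 and 2308 CPM in control, a rise of 0.89 ± 0.14 (adjusted p = 2.2e-05) that was not called on the log2(TPM + 1) scale (0.27). Gapdh is often used as a constant reference for other transcripts. Pkm, a pyruvate kinase gene, had 10110, 9461 and 10620 CPM in KPC 8 Gy, against 3843, 4024 and 3893 CPM in control. The rise of Pkm was 1.36 ± 0.14 (adjusted p = 1.46e-07), with its splice forms not told apart. In MB49 its values of 5815, 5909 and 4434 CPM after 8 Gy lay just above those of 4313, 3628 and 4234 CPM in control. The call of the MB49 change of 0.41 ± 0.13 (adjusted p = 0.0126) was lost in 7 of its alternatives. On the log2(TPM + 1) scale the estimate turned to -0.21. There the MB49 estimates of Pgk1 (-0.10) and Ero1a (-0.09) also changed sign and lost their calls, and none of these was called lower.

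Ldha, the muscle-type lactate dehydrogenase and a classic HIF target, had 3293, 3308 and 3486 CPM in KPC 8 Gy, against 1468, 1455 and 1356 CPM in KPC control. In MB49 it had 1350, 1374 and 1059 CPM after 8 Gy, against 1784, 1555 and 1611 CPM in control. The groups did not overlap in either line, but in opposite directions: it rose by 1.24 ± 0.13 in KPC (adjusted p = 2e-07) and fell by 0.39 on the log2 scale in MB49 (SE 0.13, adjusted p = 0.0116). The MB49 call was lost without MB49 control replicate 1 (-0.33, adjusted p = 0.054). The difference was 1.62 ± 0.18 (adjusted p = 2.21e-06). Ldhb, the heart-type form, had 14.7, 13.9 and 14.4 CPM in MB49 8 Gy, against 2.22, 2.16 and 2.99 CPM in MB49 control, a rise of 2.55 ± 0.21 (adjusted p = 3.79e-08). It had 6 counts over the KPC 8 Gy libraries, against 0 in KPC control. Taking 3 counts over the control group as the floor, it was 2.48-fold higher. This bound takes the 6 counts as exact and is therefore not a full lower limit. Enolase followed Ldha. Eno1 had 4229, 3975 and 4635 CPM in KPC 8 Gy, against 3167, 2963 and 2697 CPM in control (0.54 ± 0.15, adjusted p = 0.00426), and 936.1, 952.1 and 663.5 CPM in MB49 8 Gy, against 1473, 1238 and 1551 CPM in control (-0.74 ± 0.15, adjusted p = 0.000308).

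Summed over the member genes of each step on the TPM scale, the 12 steps from glucose entry to lactate dehydrogenase stood higher in every KPC 8 Gy library than in any KPC control. The ratio of means was 4.67 for aldolase, 3.79 for the isomerase, 3.24 for phosphofructokinase, 2.44 for GAPDH, 1.81 for lactate dehydrogenase and 1.12 for enolase. The enolase step turns when isoforms outside the members are added: with Eno3 and Eno1b it was 3658, 3519 and 3904 TPM in KPC 8 Gy, against 3843, 4075 and 4015 TPM in KPC control, a ratio of 0.929 with overlapping libraries; in CPM the same sum had a ratio of 1.26 without overlap. Lactate export lay lower on this scale, with a ratio of 0.748, but at 0.979 with overlapping libraries in CPM. In MB49 the steps down to GAPDH lay above 1 except phosphofructokinase at 0.958, and the later steps lay below 1. The ratios were 1.76 at glucose entry, 1.73 at the isomerase and 2.10 at aldolase, and 0.614 at phosphoglycerate mutase, 0.399 at enolase, 0.507 at lactate dehydrogenase and 0.261 at lactate export. The libraries of the MB49 groups overlapped at hexokinase, phosphofructokinase, GAPDH, phosphoglycerate kinase and pyruvate kinase. On log2(TPM + 1) the median change of all genes was -0.24 in KPC and -0.36 in MB49. A TPM ratio of 1 is therefore not the middle of all genes. In CPM the MB49 ratios were higher, at 0.939 for phosphoglycerate mutase with overlapping libraries, 0.609 for enolase, 0.772 for lactate dehydrogenase and 0.4 for lactate export. On that scale phosphofructokinase (1.46), phosphoglycerate kinase (1.43) and pyruvate kinase (1.33) lay above 1 without overlap. The summed TPM of the 17 pathway enzymes was 38620 ± 1360 in KPC 8 Gy, against 18240 ± 1300 in KPC control, and 19020 ± 2790 in MB49 8 Gy, against 19260 ± 1070 in MB49 control. As a share of all counts these genes took 3.61 ± 0.103% in KPC 8 Gy, against 1.75 ± 0.0198% in KPC control, and 1.92 ± 0.198% in MB49 8 Gy, against 1.61 ± 0.0754% in MB49 control.

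**Figure D3:**
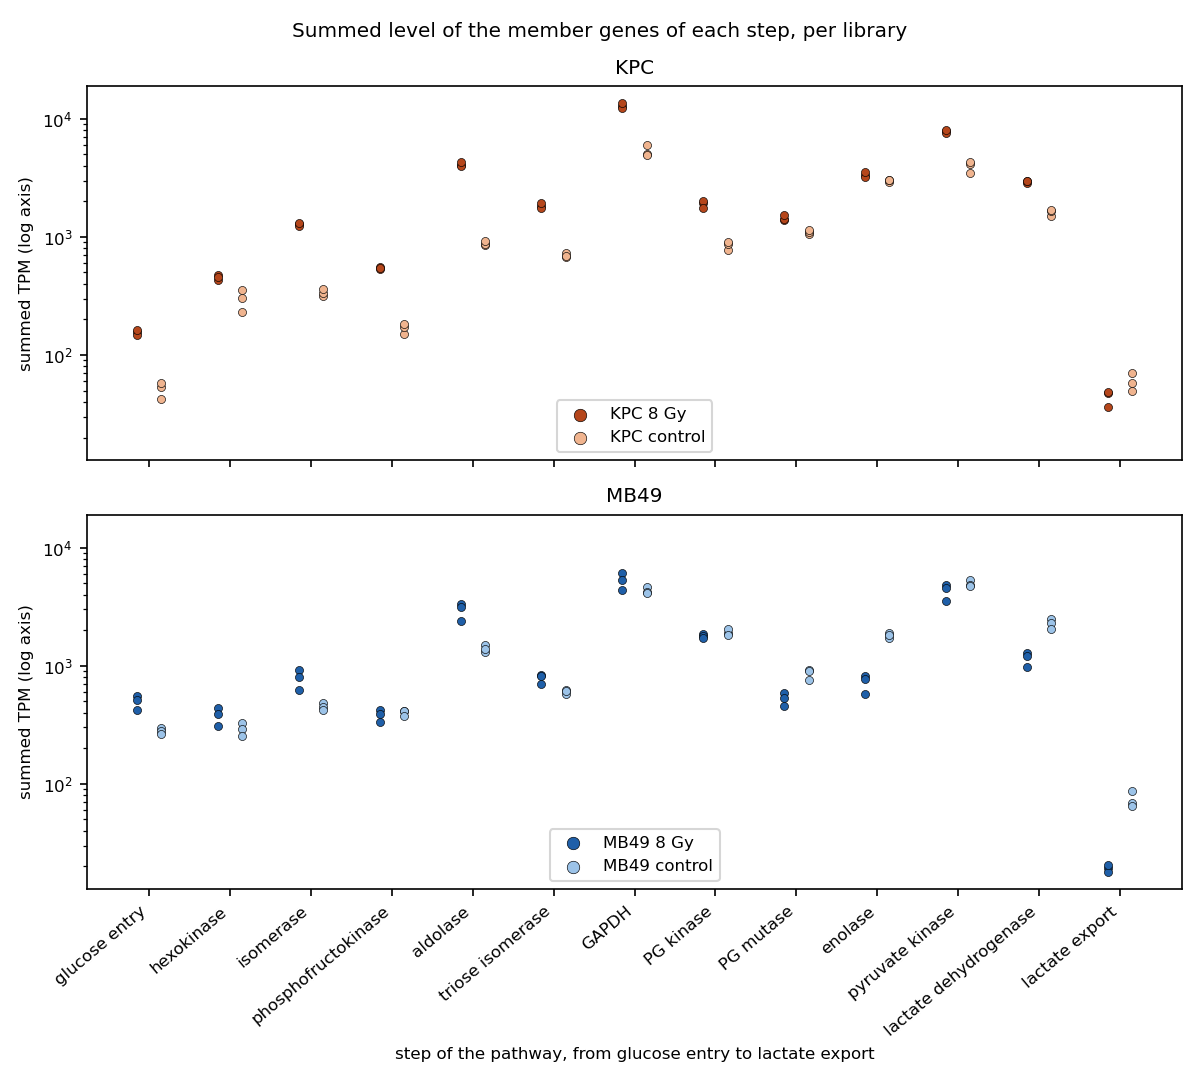
Summed TPM of the member genes of each step (vertical log axis) along the pathway (horizontal axis), one point per library, with 8 Gy left of control in KPC (upper panel) and MB49 (lower panel). In KPC the 8 Gy points lie above the control points at every step but lactate export. In MB49 they lie above at glucose entry, the isomerase, aldolase and triose isomerase. They lie below from phosphoglycerate mutase on, except at pyruvate kinase, where they overlap, as they do at the remaining earlier steps.

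Pyruvate dehydrogenase kinases switch off pyruvate dehydrogenase. Pdk1 had 75.1, 69.0 and 66.0 CPM in KPC 8 Gy, against 16.9, 17.3 and 19.5 CPM in KPC control, a rise of 1.97 ± 0.12 (adjusted p = 1.96e-10). The MB49 libraries had 16.2, 17.3 and 16 CPM after 8 Gy, against 26.3, 29.8 and 26.4 CPM in control, a fall by 0.74 on the log2 scale (SE 0.12, adjusted p = 2.61e-05). The difference of 2.70 ± 0.16 passed the test (adjusted p = 2.61e-09). Pdk3 was called higher in both, by 1.29 in KPC and 0.82 in MB49. Its share of the TPM of Pdk1 and Pdk3 was 68.9 ± 1.74% in KPC 8 Gy, against 77.6 ± 3.81% in KPC control. In MB49 the share was 78.8 ± 0.927% after 8 Gy, against 55.8 ± 2.76% in control. Pdk2, no member and not in these shares, averaged 20.64 TPM in KPC 8 Gy, against 19.7 TPM in KPC control. In MB49 it averaged 3.47 TPM after 8 Gy, against 1.222 TPM in control.

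**Figure D4:**
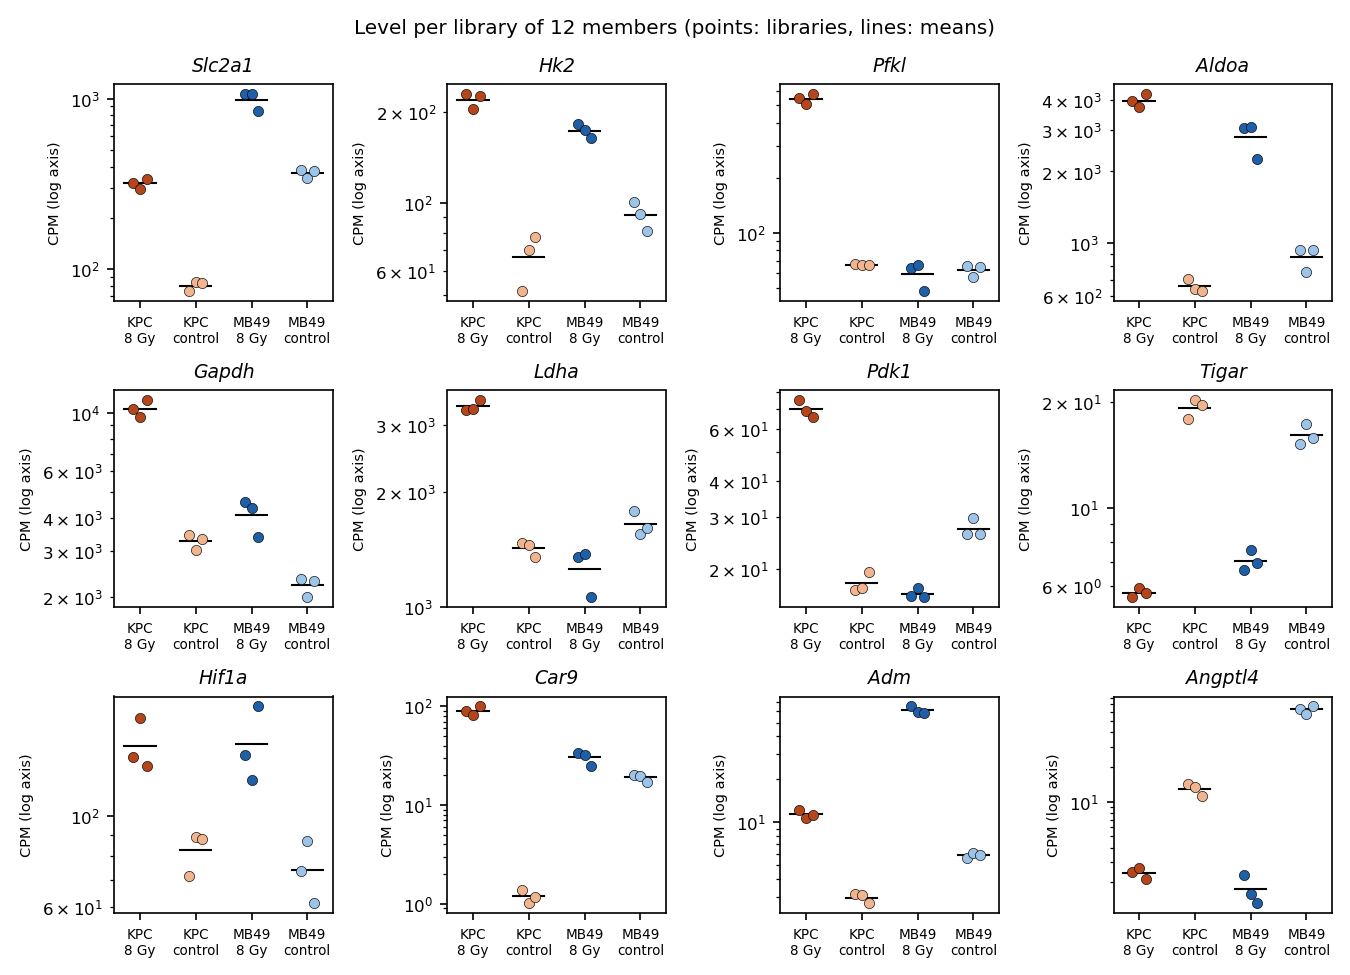
CPM per library (vertical log axis, points; lines are means of 3 libraries) of 12 members in KPC 8 Gy, KPC control, MB49 8 Gy and MB49 control. Car9 and Pfkl stand apart in KPC 8 Gy, Ldha and Pdk1 lie on opposite sides of their controls in the 2 lines, and Tigar and Angptl4 are lower after 8 Gy in both.

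Among the oxygen sensors, Hif1a had 139.2, 173.1 and 132.6 CPM in KPC 8 Gy, against 71.5, 88.7 and 88.2 CPM in KPC control, and 141.3, 122.7 and 185.2 CPM in MB49 8 Gy, against 73.4, 86.8 and 61.2 CPM in MB49 control. The groups did not overlap. The rises were 0.84 ± 0.17 in KPC (adjusted p = 0.000267) and 1.02 ± 0.17 in MB49 (adjusted p = 3.66e-05), and neither was called on the log2(TPM + 1) scale (0.45 and 0.40). The difference between the lines was -0.18 ± 0.23 (adjusted p = 0.571), so the 2 lines were not told apart in Hif1a. Epas1, the HIF-2 alpha subunit, had 12.2, 10.6 and 13.6 CPM in KPC 8 Gy, against 1.33, 1.87 and 2.45 CPM in KPC control, a rise of 2.68 ± 0.64 (adjusted p = 0.00389, and 0.0574 with DESeq2). In MB49 it had 9 counts after 8 Gy, against 23 in control, all 23 in control replicate 3, and was not called; without that library its controls were at 0 and it was called higher (adjusted p = 0.0058). Egln1, which encodes the main HIF prolyl hydroxylase PHD2, had 89.3, 92.9 and 100.4 CPM in KPC 8 Gy, against 55.5, 52.0 and 52.4 CPM in control, and 21.5, 22.5 and 18.4 CPM in MB49 8 Gy, against 41.4, 37.9 and 38.5 CPM in control. It rose by 0.82 ± 0.11 in KPC (adjusted p = 4.68e-06) and fell by 0.92 on the log2 scale in MB49 (SE 0.11, adjusted p = 1.65e-06). Egln3 was called lower in KPC (-0.46) and not called in MB49 (-0.05).

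The 11 other hypoxia response genes were called higher in 9 cases and lower in 1 in KPC, and in 7 and 2 cases in MB49, with medians of 1.58 and 0.62. These are 81.8% and 9.09% in KPC, against 31.3% and 32.0% of all genes, and 63.6% and 18.2% in MB49, against 35.3% and 31.6%. Car9, a carbonic anhydrase at the cell surface that handles acid and a classic HIF target, had 88.7, 81.9 and 99.8 CPM in KPC 8 Gy, against 1.37, 1.01 and 1.18 CPM in KPC control. MB49 had 33.8, 32.4 and 25.1 CPM after 8 Gy, against 20.2, 19.9 and 17.1 CPM in control. Its rise of 6.24 ± 0.18 in KPC (adjusted p = 2.51e-14) was the largest of any member, and the rise in MB49 was 0.67 ± 0.14 (adjusted p = 0.000373), a difference of 5.57 ± 0.23 (adjusted p = 2.76e-11). On the log2(TPM + 1) scale the MB49 rise of Car9 was 0.05 and not called. Its relative Car12 had 11.1, 10.7 and 11.8 CPM in KPC 8 Gy, against 9.98, 8.38 and 9.31 CPM in KPC control, which was not called, and 1.5, 1.16 and 1.31 CPM in MB49 8 Gy, against 0.33, 0.15 and 0.22 CPM in MB49 control, a rise of 2.48 ± 0.29 (adjusted p = 8.93e-07).

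Bnip3, a receptor for mitophagy, had 77.6, 78.2 and 67.7 CPM in KPC 8 Gy, against 18.1, 18.2 and 16.8 CPM in KPC control, a rise of 2.07 ± 0.14 (adjusted p = 6.17e-10). In MB49 its values of 25.9, 24.9 and 29.4 CPM after 8 Gy overlapped those of 19.9, 25.7 and 27.3 CPM in control. Ankrd37, a small HIF target of little known function, had 1.14, 1.48 and 1.09 CPM in KPC 8 Gy, against 0.12, 0.04 and 0.08 CPM in KPC control, a rise of 3.86 ± 0.45 (adjusted p = 1.03e-06), and in MB49 0.86, 0.82 and 0.75 CPM after 8 Gy, against 0.58, 0.73 and 0.74 CPM in control. Ndrg1, a stress-induced gene, was called higher in KPC (1.34) and lower in MB49 (-0.48), with a difference of 1.82 ± 0.19 (adjusted p = 1.02e-06). The collagen prolyl hydroxylase genes P4ha1 and P4ha2, the oxidoreductase Ero1a and the histone demethylase Kdm3a were called higher in both lines, by 0.96 to 1.94 in KPC and by 0.52 to 1.38 in MB49.

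The secreted members split. Adm, the vasodilator peptide adrenomedullin, had 12.2, 10.8 and 11.3 CPM in KPC 8 Gy, against 3.12, 3.07 and 2.70 CPM in KPC control, and 65.0, 59.6 and 58.3 CPM in MB49 8 Gy, against 5.63, 6.08 and 5.90 CPM in MB49 control. Here the larger rise was in MB49, 3.38 ± 0.13 (adjusted p = 6.98e-13), with 1.94 ± 0.13 in KPC (adjusted p = 1.09e-09) and a difference of -1.43 ± 0.18 (adjusted p = 8.28e-06). Angptl4, an inhibitor of lipoprotein lipase and a target of HIF and of PPAR factors, had 2.43, 2.65 and 2.12 CPM in KPC 8 Gy, against 14.2, 13.3 and 11.2 CPM in KPC control, and 2.30, 1.59 and 1.31 CPM in MB49 8 Gy, against 64.5, 58.1 and 67.4 CPM in MB49 control. It fell by 2.42 on the log2 scale in KPC (SE 0.18, adjusted p = 2.56e-09) and by 5.21 in MB49 (SE 0.19, adjusted p = 4.82e-13), the largest fall of any member in both lines.

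The promoters of the members that parted the lines most can be read for the HIF core. RefSeq promoter windows (build GRCm38.p6, 250 bases before to 50 after the annotated start, 300 bases in all) were found for 38 of the 42 members, in 53 windows. ACGTG stood on either strand in 27 of the 53 windows (50.9%, 95% Wilson interval 37.9 to 63.9%), and in 19.6% of all 32851 windows of the table. GCGTG stood in 30 (56.6%), and in 32.4% of all. The E-box CACGTG, which overlaps ACGTG and is read by Myc among others, stood in 6 (11.3%), and in 7.15% of all. Windows of one gene can overlap and share sites, and the interval treats them as separate. By gene, ACGTG stood in 24 of the 38 members, and in 21.8% of all 27025 genes. A match is a description of the letters and not a bound site. Members include genes chosen as known to respond to low oxygen, so a higher share than in all windows may follow from that choice. Both cores hold the letters CG, and all windows were not matched to the members for these. Why the shares differ was not tested. Shown are Car9, Pfkl and Bnip3, whose response differed by at least 1.93 between the lines, and Ldha, which moved in opposite directions. Each runs 5′ to 3′ on the gene's own strand, and capitals mark ACGTG or GCGTG on either strand, so that CACGT and CACGC are the same cores on the other strand.
Car9 (chr4:43506776-43507075, plus strand): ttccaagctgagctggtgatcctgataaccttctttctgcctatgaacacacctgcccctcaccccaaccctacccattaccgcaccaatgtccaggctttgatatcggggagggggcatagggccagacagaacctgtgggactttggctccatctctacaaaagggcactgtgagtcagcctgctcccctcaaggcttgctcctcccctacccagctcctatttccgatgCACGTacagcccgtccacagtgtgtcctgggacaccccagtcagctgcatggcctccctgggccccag
Pfkl (chr10:78009758-78010057, minus strand): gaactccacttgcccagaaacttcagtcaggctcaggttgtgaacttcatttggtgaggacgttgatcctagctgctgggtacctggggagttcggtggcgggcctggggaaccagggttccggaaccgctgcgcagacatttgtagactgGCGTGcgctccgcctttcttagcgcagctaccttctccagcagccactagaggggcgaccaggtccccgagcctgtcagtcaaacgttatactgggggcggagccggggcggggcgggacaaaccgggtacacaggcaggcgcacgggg
Bnip3 (chr7:138909457-138909756, minus strand): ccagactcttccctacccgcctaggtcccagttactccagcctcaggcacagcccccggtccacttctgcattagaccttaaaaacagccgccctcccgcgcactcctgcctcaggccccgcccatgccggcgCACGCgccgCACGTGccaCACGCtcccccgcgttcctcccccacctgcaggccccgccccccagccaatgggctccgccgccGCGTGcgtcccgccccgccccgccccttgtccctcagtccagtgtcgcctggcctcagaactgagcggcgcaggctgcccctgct
Ldha, first window (chr7:46845554-46845853, plus strand): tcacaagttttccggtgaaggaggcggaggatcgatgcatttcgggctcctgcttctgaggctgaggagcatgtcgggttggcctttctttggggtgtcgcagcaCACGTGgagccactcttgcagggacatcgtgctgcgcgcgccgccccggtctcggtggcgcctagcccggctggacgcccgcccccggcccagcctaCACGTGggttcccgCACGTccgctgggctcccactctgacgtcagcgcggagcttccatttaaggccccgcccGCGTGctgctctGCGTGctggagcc
Car9 and Pfkl each hold a single core, Bnip3 holds 5 and the first Ldha window 7, overlaps on the 2 strands included. Of other members with large differences, Ankrd37 holds 4, Pfkp 4 and Pdk1 2 in one window and 0 in the other. Car12 holds 0, and Slc2a3, Angptl4 and Ndrg1 had no window. Of the 38 members with a window, 5 held neither core in any window: Gpi1, Tigar, Tpi1, Eno2 and Car12. The windows come from the reference genome and not from these cells.

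In the controls the lines differed in many of these genes, as they did in many of all genes tested. With KPC control over MB49 control, 13 of the 41 members (31.7%) were called higher and 18 (43.9%) lower. Of all genes, 33.0% and 34.4% were. The median was -0.14, with -0.02 for all genes. The share called higher was close to that of all genes. On the log2(TPM + 1) scale 9 were higher and 22 lower, and the higher share of all genes called was 37.3%, against 49.0%. Aldoc had 730 counts over the KPC controls, against 3 over the MB49 controls, a ratio of 252 (95% counting interval 85.8 to 1220). Higher in KPC control were also P4ha2 (32.8 ± 2.10 CPM, against 0.64 ± 0.153 CPM in MB49 control, log2 fold change 5.69 ± 0.23, adjusted p = 5.86e-13), Car12 (5.29 ± 0.25, adjusted p = 3.92e-12), Pfkfb4 (1.85 ± 0.14, adjusted p = 2.17e-09) and Eno1 (1.05 ± 0.15, adjusted p = 8.14e-06). Epas1 was called too (2.61 ± 0.86, adjusted p = 0.0198), but not with DESeq2 (adjusted p = 0.0846), within these 6 libraries alone (0.0958) or without KPC control replicate 3 (0.0638).

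Lower in KPC control was Ldhb, with 0 counts over the group, against 189 in MB49 control. Against a floor of 3 counts it was 60.9-fold higher in MB49, with the 189 counts taken as exact. Car9, with 1.19 ± 0.181 CPM in KPC control, against 19.1 ± 1.68 CPM in MB49 control, lay lower by -4.00 ± 0.18 (adjusted p = 1.98e-12). After 8 Gy the order was reversed, with 90.1 ± 9.0 CPM in KPC and 30.4 ± 4.69 CPM in MB49. Slc2a1 (-2.19 ± 0.13, adjusted p = 8.51e-11), Angptl4 (-2.29 ± 0.15, adjusted p = 4.65e-10), Eno2 (-2.31 ± 0.12, adjusted p = 1.27e-11), Pfkfb3 (-1.56 ± 0.16, adjusted p = 1.03e-07), Pfkp (-1.51 ± 0.12, adjusted p = 2.82e-09), Ero1a (-1.48 ± 0.12, adjusted p = 9.48e-09) and Ndrg1 (-1.40 ± 0.13, adjusted p = 5.18e-08) were lower as well. Responses and this contrast share the control libraries, so their values stand side by side and are not set against each other.

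Genes of the same pathways outside the 42 members moved in both directions. Their counts stand beside the 31.3% of all genes called higher and 32.0% lower in KPC, and 35.3% and 31.6% in MB49. Of 28 further hypoxia targets tested, 17 (60.7%) were called higher and 4 (14.3%) lower in KPC, and 15 (53.6%) and 6 (21.4%) in MB49. Gbe1, the glycogen branching enzyme, averaged 44.7 CPM in KPC 8 Gy, against 2.85 CPM in KPC control (3.97 ± 0.16, adjusted p = 1.16e-12), and 41.2 CPM in MB49 8 Gy, against 9.18 CPM in MB49 control. Hmox1, heme oxygenase, averaged 1678 CPM in KPC 8 Gy, against 239.8 CPM in KPC control (2.81 ± 0.13), and 189.7 CPM in MB49 8 Gy, against 60.0 CPM in MB49 control. Other targets averaged lower after 8 Gy. Stc2 averaged 12.01 CPM in KPC 8 Gy, against 73.56 CPM in KPC control, and was nearly silent in MB49. Jmjd6 averaged 85.99 CPM in KPC 8 Gy, against 139.5 CPM in KPC control. In MB49 Jmjd6 averaged 41.44 CPM after 8 Gy, against 85.25 CPM in control. Vegfa, the best known HIF target outside metabolism, averaged 205.6 CPM in KPC 8 Gy, against 208.5 CPM in KPC control, and 142.3 CPM in MB49 8 Gy, against 196.3 CPM in MB49 control, and was called only as lower in MB49 (-0.46).

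Of 12 other HIF regulators tested, 3 (25%) were called higher and 8 (66.7%) lower in KPC, and 3 (25%) and 6 (50%) in MB49. Arnt, the partner of the HIF alpha subunits, was called higher in both (0.47 in KPC and 0.57 in MB49). Lower in both were Cited2, which competes with HIF for its coactivators (-2.71 and -3.61), and the coactivator genes Ep300 (-1.27 and -1.29) and Crebbp (-0.72 and -1.81). Of 6 regulators beside HIF, 1 (16.7%) was called higher and 4 (66.7%) lower in KPC, and 1 (16.7%) and 3 (50%) in MB49. Among them Myc, which also drives glycolytic genes, averaged 52.5 CPM in KPC 8 Gy, against 632.1 CPM in KPC control (-3.59 ± 0.14), and 72.6 CPM in MB49 8 Gy, against 1348 CPM in MB49 control (-4.21 ± 0.15). Nos2, the inducible nitric oxide synthase, averaged 7138 CPM in KPC 8 Gy, against 3.14 CPM in KPC control, and 2302 CPM in MB49 8 Gy, against 88.2 CPM in MB49 control.

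Of 10 other sugar and lactate carriers and glucose sensors tested, 7 (70%) were called higher and 3 (30%) lower in KPC, and 5 (50%) and 2 (20%) in MB49. Slc2a4, the insulin-responsive GLUT4, averaged 3.44 CPM in KPC 8 Gy, against 1.77 CPM in KPC control, and 36.5 CPM in MB49 8 Gy, against 0.59 CPM in MB49 control, a rise of 5.94 ± 0.19 in MB49 (adjusted p = 1.17e-13). Txnip, which restrains glucose uptake, averaged 790.5 CPM in KPC 8 Gy, against 2027 CPM in KPC control (-1.36 ± 0.13), and 209.9 CPM in MB49 8 Gy, against 1043 CPM in MB49 control (-2.31 ± 0.13). Of the 8 genes of the pentose phosphate pathway, which branches off after hexokinase, 4 (50%) were called higher and 0 lower in KPC, and 6 (75%) and 0 in MB49. Pgd led it in KPC (1.91 ± 0.12) and Tkt in MB49 (1.51 ± 0.14). Another 10 genes tested cover pyruvate entry into mitochondria and pyruvate dehydrogenase with its regulators. Of these, 2 (20%) were called higher and 3 (30%) lower in KPC, and 4 (40%) and 1 (10%) in MB49. The KPC shares were at or below those of all genes, as was the lower share in MB49, and 40% is near the 35.3% of all genes. The pyruvate carrier genes Mpc1 and Mpc2 were called higher in MB49 (1.14 and 0.84), while in KPC Mpc1 was not called and Mpc2 was lower (-0.67). Of 16 further isoforms of glycolysis and gluconeogenesis, 7 (43.8%) were called higher and 4 (25%) lower in KPC, and 7 (43.8%) and 1 (6.25%) in MB49; Eno3, another enolase, was lower in KPC (-1.20 ± 0.13), unlike Eno1 and Eno2.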

How the data were processed

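The 12 mRNA libraries were made with a stranded Illumina kit, per the labels' protocols. Per the submitters' processing notes, fastp, HISAT2, StringTie and the build GRCm39 were used, with no order given; the counting tool and its strand setting are not given in the sources used here, so reads of overlapping antisense genes may be shared. Values in the deposited table are estimated counts, of which 6.2 to 8.65% in a library are not whole; they were rounded. Rows without a symbol (525) held 0.18 to 0.45% of counts, and 53 were tested. A deposited column of gene length, of another unit than the counts, served TPM and one check.

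Genes with low counts were removed by edgeR's filterByExpr, which left 14362 of 57180 rows. Libraries were scaled by TMM, and edgeR 4.0.16 in R 4.3.3 fitted a robust quasi-likelihood model of the 4 groups to the 12 libraries together (8 residual degrees of freedom, common dispersion as a coefficient of variation 0.15). The 2-sided p-values were adjusted by Benjamini-Hochberg over all genes tested, and a gene with an adjusted p under 0.05 was called; SE is the size of the log2 fold change over the square root of F. The 4 comparisons were KPC 8 Gy against KPC control, MB49 8 Gy against MB49 control, the difference of these responses, and KPC control against MB49 control. TPM, shares and step sums are descriptions. Counting intervals are exact and at 95%, those of motif shares are Wilson intervals, and both cover counting error only. The floor of 3 counts covers only the counting error of the group at 0 counts. Depth was 19005991 to 26337928 counts. Checked on simulated counts, the scripts recovered the changes put in. Those changes were in a small set of well-covered genes, as many up as down. The check therefore does not cover genes with few counts or scaling under broad changes.

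The members, the lists and the tests were chosen with earlier results of these data known. Members given per library are those past the test with a log2 fold change of at least 1 and at least 1 CPM in either group, at most 10 per direction, the 10 largest differences of responses, and the anchors Slc2a1, Hk2, Gapdh, Pkm, Ldha and Hif1a. Of other lists, up to 2 genes per direction were named. Slc16a3, Eno1, Egln1, Car9 in MB49, Vegfa, Stc2, Jmjd6, Arnt, Ep300, Crebbp, Mpc1 and Mpc2 were chosen after their values were seen. Alternatives were DESeq2 (1.42.0), limma (3.58.1) with voom weights, other scalings, no filter, a length offset, a replicate block, summed copies, 6 libraries alone, each library left out and, added after seeing the data, limma on log2(TPM + 1), and step sums in CPM or with other isoforms. Pseudogene copies held at most 3.51% of a member's summed counts (Pgam1).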

Additional observations from a re-analysis of the deposited data

Results flagged for a closer look

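The responses of the 2 lines to 8 Gy differed, by the test of the difference itself, for 30 members, and 20.9% and 22.0% of all genes tested were called with a larger log2 fold change in KPC and in MB49. Values are log2, KPC minus MB49, with edgeR's adjusted p under 0.05. The largest on the KPC side were Car9 with 5.57, Ankrd37 with 3.62, Pfkl with 3.08, Angptl4 with 2.79, Pdk1 with 2.70 and Pfkp with 2.16. Angptl4 stands there because it fell less in KPC than in MB49. Between 1 and 2 were Bnip3 with 1.93, Ndrg1 with 1.82, Egln1 with 1.74, Ldha with 1.62, Ero1a with 1.43, Slc16a1 with 1.29, Eno1 with 1.28, Eno2 with 1.28 and Pgk1 with 1.03. Smaller differences were those of Pkm with 0.95, Aldoa with 0.92, Gpi1 with 0.90, Pgam1 with 0.86, Hk2 with 0.80, Tpi1 with 0.78, Gapdh with 0.78, Pfkfb3 with 0.78 and Slc2a1 with 0.56.

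On the MB49 side were Slc2a3 with -3.01, Car12 with -2.20, Adm with -1.43, Tigar with -0.56, Pfkm with -0.50 and Egln3 with -0.42. The calls of Tigar, Pfkm and Egln3 were lost without MB49 8 Gy replicate 2 and without KPC control replicate 1. Tigar also lost its call without MB49 control replicate 1, KPC 8 Gy replicate 1 or KPC control replicate 2, Pfkm without MB49 control replicate 2 or KPC 8 Gy replicate 2, and Egln3 without most single libraries. Slc2a3 rests on 23 counts in KPC 8 Gy, 60 in KPC control, 28 in MB49 8 Gy and 9 in MB49 control.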

How the results depend on the processing

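The rise in KPC held in each alternative: 31 to 34 members were called higher, and in no alternative did a called member change sign there. In MB49 the counts moved with the setting. With limma on log2(TPM + 1) 10 members were called higher and 15 lower, Pkm was at -0.21, Pgk1 at -0.10 and Ero1a at -0.09; the cause was not tested. On that scale 14 calls of members were lost and 6 gained in MB49, and 3 were lost and 2 gained in KPC. Among those lost were the calls of Hk2, Gapdh, P4ha2 and Hif1a in MB49 and of Hif1a in KPC. For the difference of responses, members called on the MB49 side were 3 with no filter on low counts. Leaving out one library at a time gave 3 to 7 on that side and 24 to 26 on the other, 34 higher and 3 to 4 lower in KPC, 23 to 25 higher and 8 to 10 lower in MB49, and 11 to 13 higher and 17 to 19 lower for the controls.

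Shares of counts, with no gene length, moved the isoform shares but kept the order of the 2 groups of a line in each gene here. In KPC 8 Gy, KPC control, MB49 8 Gy and MB49 control they were 18.6%, 11.6%, 18.6% and 19.1% for Hk2; 49.8%, 27.7%, 8.94% and 13.8% for Pfkl; 34.98%, 38.5%, 36.3% and 58.4% for Pfkp; 52.5%, 41.2%, 39.8% and 66.0% for Pdk1; and 57.3%, 35.6%, 13.5% and 22.2% for Egln1. For Pfkm they were 15.2% in KPC 8 Gy and 33.8% in KPC control.

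The summed steps kept their side of 1 with other isoforms added, except enolase in KPC at 0.929, and in CPM where the libraries had not overlapped in TPM; both settings were chosen after seeing the data.

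Replicate numbers did not pair the samples: deviations of same-numbered libraries correlated at -0.116, -0.023 and 0.019 in KPC and at 0.171, -0.178 and 0.055 in MB49. With the replicate block, 34 members were called higher and 3 lower in KPC, 24 and 9 in MB49, 24 and 5 for the difference, and 13 and 18 for the controls. Genes with few counts, Slc2a3, Slc16a3, Epas1 in MB49 and Aldoc in MB49, are limited by depth. Summing members with their named copies changed no count.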
